A study of Mus musculus with 4 samples.

Results

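The genes described here encode the subunits of the receptors for GABA, glycine and glutamate, the fast transmitters of the hypothalamus. They were chosen by gene symbol, with earlier results of these data known. The symbols covered GABA-A (Gabr), GABA-B (Gabbr) and glycine (Glra, Glrb) receptors. For glutamate they covered AMPA (Gria), delta (Grid), kainate (Grik), NMDA (Grin) and metabotropic (Grm) receptors. Every probe with a fitting symbol was taken. The array held 54 such probes for 41 genes, of 16593 named genes in all. One of the 41, Grid2ip, was taken in by the naming rule but encodes a protein that binds the delta receptor and not a subunit.

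Ribosome-bound RNA was profiled in 4 precipitates from mediobasal hypothalamus punches, each on 1 Illumina MouseRef-8 v2 array. In the lineage group (n = 2) the mice came from a Pomc-Cre by RiboTag cross, in which Cre permanently tags the ribosomes of each cell whose ancestors expressed Pomc. In the AAV group (n = 2) Pomc-Cre mice were injected with AAV-DIO-RiboTag, a viral vector that tags ribosomes only in infected cells that contain Cre, which the labels call adult POMC neurons. Both groups thus carry Pomc-Cre, and they differ in how and when the tag was turned on. The labels used here give no strain, age, sex or number of animals per array, so the p-values measure the spread between arrays, which may be technical. All 4 samples are precipitates, and enrichment over unprecipitated tissue was not analysed here.

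GABA-A receptors are chloride channels built of 5 subunits, usually alpha, beta and gamma, and the alpha and gamma subunits set their kinetics, their place on the cell and their response to benzodiazepines. GABA-B receptors are G protein-coupled dimers, and glycine receptors are chloride channels related to GABA-A receptors. AMPA, kainate and NMDA receptors are cation channels opened by glutamate, while metabotropic glutamate receptors act through G proteins. In the arcuate nucleus, AgRP neurons release GABA and POMC neurons are among the cells they contact.

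Of the 41 genes, 22 could be tested, because 2 or more of the 4 arrays detected a probe (detection p-value under 0.05): 9 GABA-A, 1 GABA-B, 3 glycine, 4 AMPA, 2 kainate, 2 NMDA and 1 metabotropic receptor gene. The GABA-A subunit genes Gabra2, Gabre, Gabrg1 and Gabra5 had a higher signal on both lineage arrays than on either AAV array, by 1.32-fold to 1.73-fold on average. Grm7 also had a higher signal in the lineage group and Grin2b a lower one. The 4 AMPA receptor genes showed no common direction. On the log2 scale Gria1 and Gria2 differed by 0.08 and -0.05, Gria3 by -0.35 and Gria4 by 0.70. With p-values adjusted over all 8360 genes, limma called 0 of the 22 genes at 0.05, and 0% of all genes (adjusted p of the 22 from 0.271 to 1.00). With a trend in the spread 0 of the 22 were called, against 2.43% of all genes, and without background correction 0 of the 22, against 0.478%. At an unadjusted p under 0.05, 5 of the 22 were higher in the lineage group, or 22.7%, against 4.75% of all genes tested. One of the 22, or 4.55%, was lower, against 6.18% of all genes. The 5 higher genes became 3 with the replicate block, with the authors' processed values, with an unmoderated model or without AAV replicate 1, and 2 without lineage replicate 2. In RNA pooled over cells, fewer cells of a type and less RNA per cell cannot be told apart.

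The promoters of the 4 GABA-A genes are shown because these genes share a direction and 2 of them, Gabra2 and Gabrg1, are neighbours on chromosome 5. Each is the 300-base window from 250 bases before to 50 bases after a start listed by RefSeq, on GRCm38.p6, written 5′ to 3′ on the gene's strand, which is the minus strand for all 4. RefSeq windows were found for 33 of the 41 genes. Capitals mark matches on either strand to the homeodomain core TAATTA, the E-box CAGCTG, the cAMP response element TGACGTCA, the GC box GGGCGG and the TATA box TATAAA.
Gabra2, chr5:71095800-71096099: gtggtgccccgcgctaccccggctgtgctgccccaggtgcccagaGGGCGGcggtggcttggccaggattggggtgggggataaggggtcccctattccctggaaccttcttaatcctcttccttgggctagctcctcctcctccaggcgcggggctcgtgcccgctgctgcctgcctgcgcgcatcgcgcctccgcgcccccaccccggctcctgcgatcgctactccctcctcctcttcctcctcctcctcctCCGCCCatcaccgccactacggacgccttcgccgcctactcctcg
Gabrg1, chr5:70842568-70842867: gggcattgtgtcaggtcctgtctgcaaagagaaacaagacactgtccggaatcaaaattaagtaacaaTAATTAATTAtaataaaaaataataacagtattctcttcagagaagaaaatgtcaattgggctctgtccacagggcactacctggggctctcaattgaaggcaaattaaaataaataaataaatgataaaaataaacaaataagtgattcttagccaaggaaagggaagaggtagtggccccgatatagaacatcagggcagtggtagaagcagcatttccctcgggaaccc
Gabre, chrX:72274672-72274971: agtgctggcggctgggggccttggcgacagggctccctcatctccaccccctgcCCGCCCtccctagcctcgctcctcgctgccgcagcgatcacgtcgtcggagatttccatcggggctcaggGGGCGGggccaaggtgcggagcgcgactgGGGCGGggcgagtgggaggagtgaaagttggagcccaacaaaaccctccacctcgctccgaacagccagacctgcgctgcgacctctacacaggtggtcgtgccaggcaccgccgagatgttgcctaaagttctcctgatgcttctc
Gabra5, chr7:57510010-57510309: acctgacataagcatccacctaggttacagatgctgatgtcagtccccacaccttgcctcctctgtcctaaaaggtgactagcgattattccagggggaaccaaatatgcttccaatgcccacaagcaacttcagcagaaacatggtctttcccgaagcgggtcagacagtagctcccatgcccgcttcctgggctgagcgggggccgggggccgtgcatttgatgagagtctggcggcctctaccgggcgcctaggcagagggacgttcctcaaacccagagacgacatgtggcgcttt

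These windows had little in common beyond the genes' shared direction. The GC content was 70.0% for Gabra2, 66.7% for Gabre, 56.7% for Gabra5 and 38.3% for Gabrg1, against a median of 52.7% over 32851 promoter windows. The Gabra2 window held 2 GC boxes and the Gabre window 3, a motif found in 35.7% of all windows, and none of the other motifs. The Gabrg1 window held 2 overlapping TAATTA matches, a motif found in 5.3% of all windows, while the Gabra5 window held no match. The E-box, the cAMP response element and the TATA box, found in 16.3%, 1.8% and 13.6% of all windows, had no match in any of the 4. A match is only a stretch of letters and does not show binding.

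**Figure D1:**
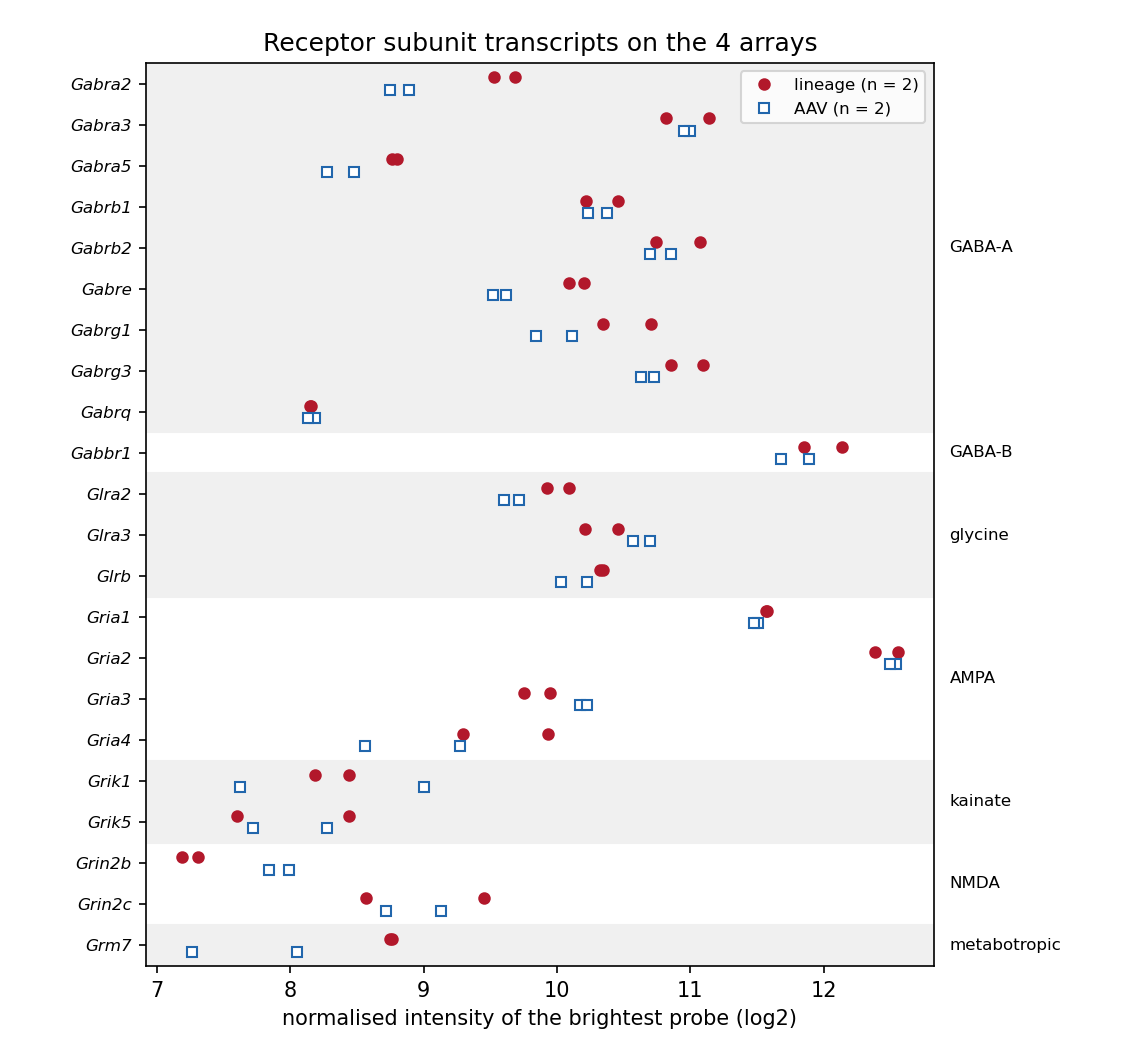
Normalised log2 intensity of the brightest probe (x axis) for the 22 tested subunit genes (rows, grouped by receptor family), with filled circles for the 2 lineage arrays and open squares for the 2 AAV arrays. The groups do not overlap for 13 genes. Of these, 10 are higher in the lineage group (45.5% of the 22, against 21.5% of all genes) and 3 lower (13.6%, against 22.7%).

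Among the GABA-A subunits, Gabra2 differed most. Its product is an alpha subunit found at many forebrain synapses. Gabra2 was at 9.53 and 9.68 on the lineage arrays and at 8.75 and 8.89 on the AAV arrays (normalised log2 intensity). Both lineage values lay above both AAV values, and the groups were further apart than either pair of replicates (gaps of 0.16 and 0.14). The difference was 0.79 (SE 0.15, 95% interval 0.38 to 1.19), a 1.73-fold higher signal in the lineage group (limma adjusted p = 0.271, unadjusted p = 0.00477), and 98.3% of all tested genes had a difference no larger. The deposited intensities behind it, with the standard error over beads, were 1118 ± 55.7 and 1263 ± 50.8 on the lineage arrays and 876 ± 30.9 and 884 ± 44.4 on the AAV arrays.

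Gabre encodes the epsilon subunit, which is largely confined to the hypothalamus and brainstem in rodents. Gabre was at 10.20 and 10.09 in the lineage group and at 9.52 and 9.62 in the AAV group. The groups did not overlap, and the difference of 0.58 (SE 0.14, 1.49-fold, limma adjusted p = 0.364, unadjusted p = 0.0125) was over the replicate gaps of 0.11 and 0.10. Gabrg1, which encodes a gamma subunit that gives receptors a weaker benzodiazepine response, was at 10.34 and 10.71 in the lineage group and at 10.11 and 9.84 in the AAV group. Its groups did not overlap either, but the lowest lineage value and the highest AAV value were close together. The difference was 0.55 (SE 0.20, 95% interval 0.0084 to 1.09, 1.46-fold, limma adjusted p = 0.453, unadjusted p = 0.0477). Gabra5, an alpha subunit known for extrasynaptic receptors in the hippocampus, was at 8.76 and 8.80 in the lineage group and at 8.48 and 8.27 in the AAV group. It differed by 0.40 (SE 0.15, 1.32-fold, limma adjusted p = 0.453, unadjusted p = 0.0492), again without overlap.

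The remaining 5 tested GABA-A genes had unadjusted p-values of 0.133 or more. Gabrg3, another gamma subunit, was at 10.85 and 11.09 in the lineage group and at 10.63 and 10.73 in the AAV group, a difference of 0.29 (SE 0.16) without overlap. Gabra3, which encodes an alpha subunit common in monoamine nuclei and the hypothalamus, differed by 0.01 (95% interval -0.45 to 0.47), and Gabrq, which encodes the theta subunit, by -0.0035 (95% interval -0.37 to 0.36). For the beta subunits, which GABA-A receptors need to reach the membrane, the difference was 0.03 for Gabrb1 (95% interval -0.40 to 0.47) and 0.13 for Gabrb2 (95% interval -0.35 to 0.61), with 0.24 on another Gabrb2 probe. Values of Gabra3, Gabrq, Gabrb1 and Gabrb2 overlapped between the groups. Over the 9 genes the median difference was 0.29, with 8 means higher and 1 lower in the lineage group, and over all genes tested the median was -0.0064, with 49.2% of means higher. The GABA-A median was 0.17 without lineage replicate 2, 0.19 without background correction and 0.08 over all 16 GABA-A genes on the array with no filter. Of the 9, the mean was higher for 6 without lineage replicate 2 or without AAV replicate 2 and for 7 without lineage replicate 1. All 9 were detected on all 4 arrays, so none had entered through the group in which it was brighter.

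**Figure D2:**
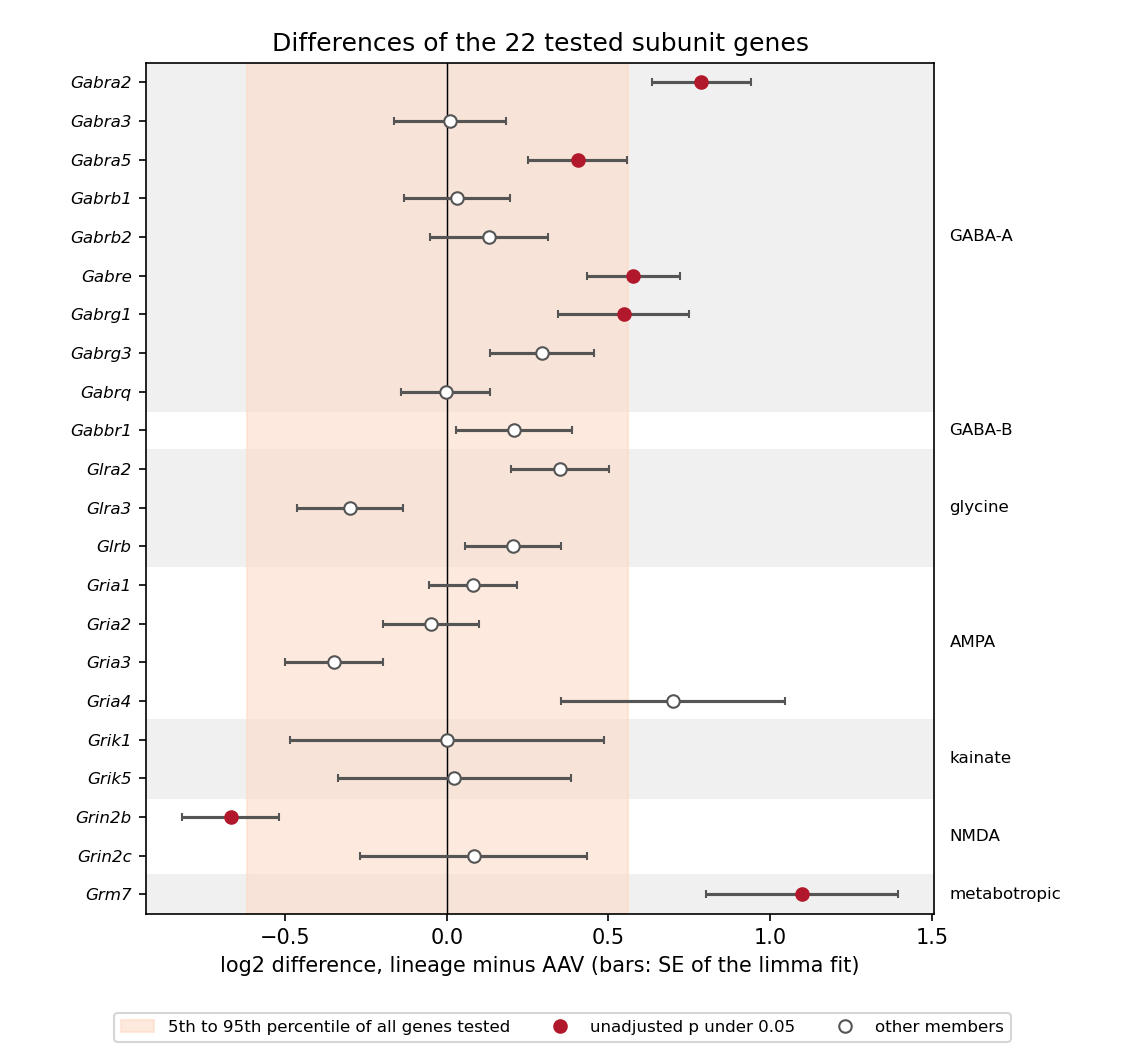
Log2 difference of lineage minus AAV (x axis, bars: SE of the limma fit) for the 22 tested subunit genes by receptor family. Filled points have an unadjusted p under 0.05, and the shaded band spans the 5th to the 95th percentile of all 8360 genes, -0.62 to 0.56; Gabra2, Gabre, Gria4 and Grm7 lie above it and Grin2b below it.

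Most GABA-A subunit genes sit in clusters in the mouse genome, and the differences were uneven within them. In the chromosome 5 cluster, read in the order Gabrg1, Gabra2, Gabra4 and Gabrb1, the differences were 0.55, 0.79 and 0.03, with Gabra4 not past the filter. On chromosome 7 the neighbours Gabrg3 and Gabra5 were at 0.29 and 0.40, both without overlap between the groups. On the X chromosome Gabre was at 0.58, whereas Gabra3 and Gabrq beside it were at 0.01 and -0.0035. On chromosome 11 Gabrb2 was at 0.13 with overlapping groups, and its neighbour Gabra6 did not pass the filter. On chromosome 4 neither Gabrr1 nor Gabrr2 passed the filter. Differences between neighbours were not themselves tested.

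**Figure D3:**
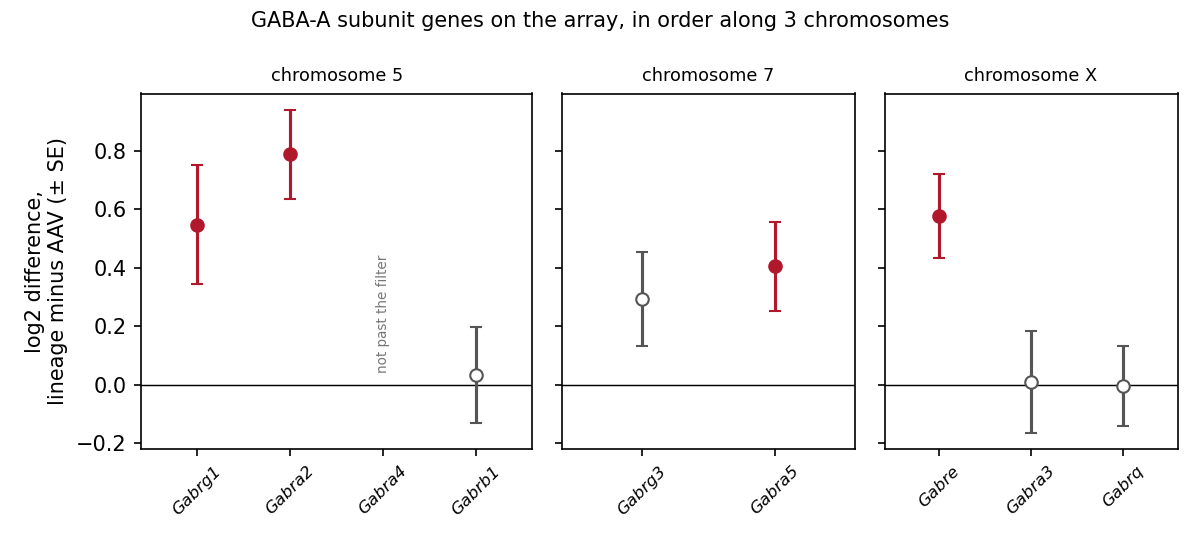
Log2 difference of lineage minus AAV (y axis, bars: SE) for GABA-A subunit genes on the array, in their order along chromosomes 5, 7 and X, not to scale of distance. Clusters were drawn where a gene had an unadjusted p under 0.05, so those on chromosomes 4 and 11 are left out. Filled points have an unadjusted p under 0.05; the higher signals include Gabrg1 and Gabra2 on chromosome 5, Gabra5 on chromosome 7 and Gabre on the X chromosome.

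Gabbr1, which encodes the GABA-binding subunit of the GABA-B dimer, was at 12.14 and 11.85 in the lineage group and at 11.89 and 11.68 in the AAV group. The groups overlapped, and the difference of 0.21 (SE 0.18, 95% interval -0.27 to 0.69, limma adjusted p = 0.710) was within the replicate gap of 0.29 on the lineage arrays. It was 0.063 without lineage replicate 1, 0.10 without AAV replicate 2, 0.36 without lineage replicate 2 and 0.32 without AAV replicate 1. Of the glycine receptor genes, Glra2, the alpha subunit of developing neurons, was at 9.93 and 10.09 in the lineage group and at 9.72 and 9.60 in the AAV group. It was higher in the lineage group without overlap, by 0.35 (SE 0.15, limma adjusted p = 0.485, unadjusted p = 0.0729). Glra3, another alpha subunit, went the other way, with 10.21 and 10.46 in the lineage group and 10.57 and 10.70 in the AAV group, a difference of -0.30 (SE 0.16, limma adjusted p = 0.567). Glrb encodes the beta subunit that ties glycine receptors to the scaffold protein gephyrin, and its brightest probe differed by 0.21 (SE 0.15, no overlap) while another probe gave -0.0093.

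The AMPA receptor genes showed no common direction. Gria1 was at 11.57 and 11.57 in the lineage group and at 11.51 and 11.48 in the AAV group, a difference of 0.08 (95% interval -0.28 to 0.44), and its other probes gave 0.08 and 0.03. Gria2 encodes the subunit that makes edited AMPA receptors impermeable to calcium. It was at 12.39 and 12.56 in the lineage group and at 12.54 and 12.50 in the AAV group, a difference of -0.05 (95% interval -0.44 to 0.34), with 0.33 (SE 0.16) on another probe, so that its 2 probes disagreed in sign.

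Gria3 had a lower mean in the lineage group on each of its 3 probes. On the brightest it was at 9.75 and 9.95 in the lineage group and at 10.17 and 10.23 in the AAV group, a difference of -0.35 (SE 0.15, limma adjusted p = 0.489, unadjusted p = 0.0750). The other probes gave -0.43 and -0.47, and the values of the last of these overlapped. Probes of 1 gene share their RNA and are not replicates. Gria4, the subunit with the largest AMPA difference, was at 9.30 and 9.93 in the lineage group and at 9.28 and 8.56 in the AAV group. The groups touched without overlapping, the replicate gaps were 0.64 and 0.72, and the difference was 0.70 (SE 0.35, 95% interval -0.22 to 1.62, limma adjusted p = 0.532). It was 1.06 without AAV replicate 1, 0.34 without AAV replicate 2 and 0.38 without lineage replicate 2.

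The kainate receptor genes could be measured only loosely. Grik5 was at 7.60 and 8.44 in the lineage group and at 8.27 and 7.72 in the AAV group, so each group spanned most of the range of the other. Its difference was 0.02 (95% interval -0.93 to 0.98). Grik1 lay at 8.44 and 8.19 in the lineage group and at 7.62 and 9.00 in the AAV group, a difference of 0.0017 (95% interval -1.29 to 1.29), with 0.30 on another probe.

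Grin2b, which encodes the NMDA receptor subunit with slow decay and high magnesium sensitivity, was the only member at an unadjusted p under 0.05 that was lower in the lineage group. Its values were 7.19 and 7.31 on the lineage arrays and 7.84 and 7.99 on the AAV arrays. The probe was not well above background on either lineage array (detection p-values 0.0689 and 0.0915) but was detected on both AAV arrays (0.0226 and 0.0100). The fitted difference was -0.67 (SE 0.15, limma adjusted p = 0.329, unadjusted p = 0.00846). Set against the dimmest detected probe of each lineage array, the background-corrected signal was 1.30-fold higher in the AAV group. That is not a lower bound, as the difference was only -0.24 without background correction. Deposited intensities were 534 and 582 on the lineage arrays and 663 and 673 on the AAV arrays. Grin2b had passed the filter only through the AAV arrays. Grin2c, the other NMDA receptor gene tested, was at 8.57 and 9.45 in the lineage group and at 9.13 and 8.72 in the AAV group and differed by 0.08 (95% interval -0.85 to 1.01), with overlapping groups.

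Grm7 encodes a presynaptic metabotropic receptor that lowers transmitter release, and it was the only metabotropic receptor gene tested. Grm7 was at 8.76 and 8.75 in the lineage group and at 8.05 and 7.26 in the AAV group. The lineage arrays were alike, while the AAV arrays lay 0.79 apart, and the probe was not detected on AAV replicate 2 (detection p-value 0.0602). The difference of 1.10 (SE 0.30, 2.14-fold, limma adjusted p = 0.384, unadjusted p = 0.0166) was 0.70 without AAV replicate 2 and 1.50 without AAV replicate 1. Deposited intensities were 821 ± 31.6 and 871 ± 33.1 on the lineage arrays and 704 ± 20.8 and 571 ± 24.5 on the AAV arrays (SE over beads).

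**Figure D4:**
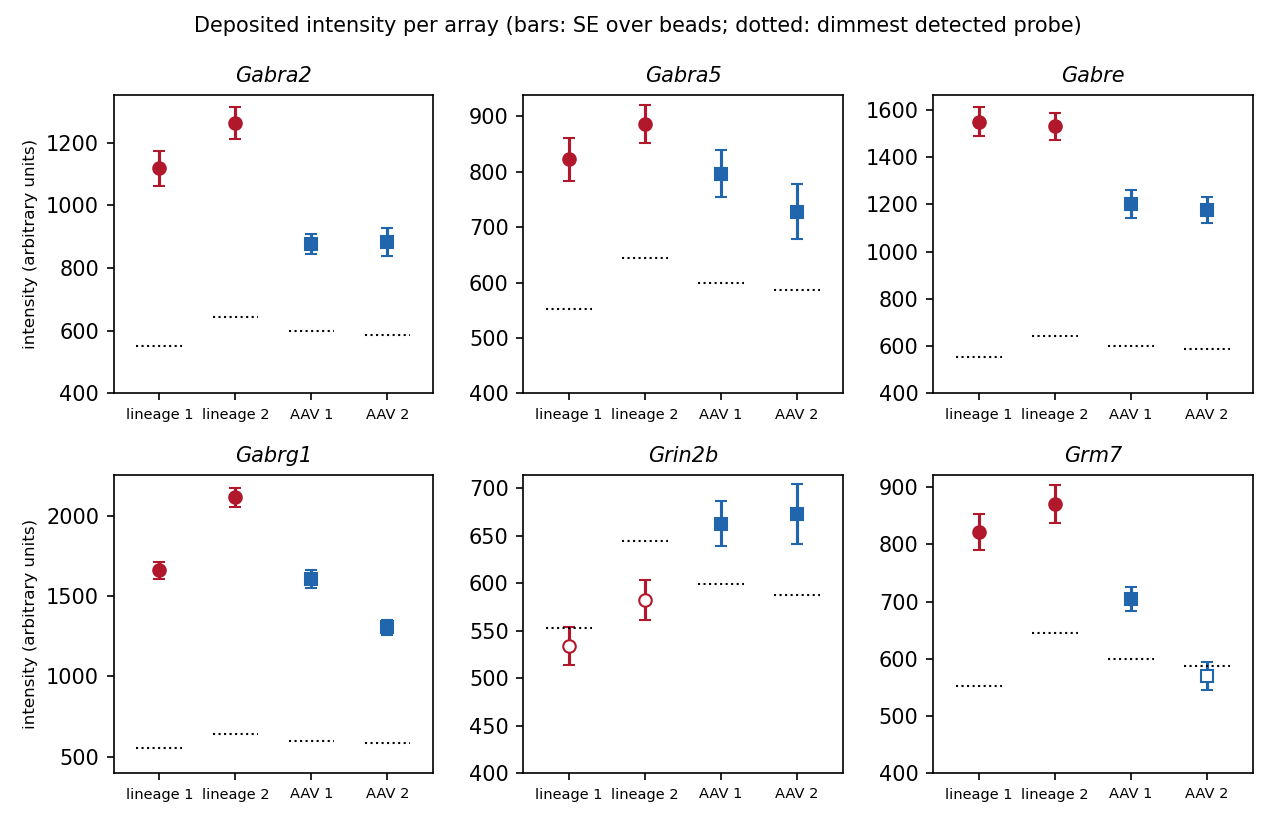
Deposited intensity on each array (y axis, arbitrary units, not starting at 0; bars: SE over beads) of the 6 members at an unadjusted p under 0.05. Circles are lineage and squares AAV arrays, open symbols were not detected, and dotted lines mark the dimmest detected probe of that array; Grin2b is open on both lineage arrays and Grm7 on AAV replicate 2.

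The other 19 genes did not pass the filter. They were the GABA-A genes Gabra4, Gabra6, Gabrd, Gabrp, Gabrr1, Gabrr2 and Gabrr3, the glycine receptor genes Glra1 and Glra4, the kainate receptor genes Grik2 and Grik4, the NMDA receptor genes Grin2a, Grin2d and Grin3b, the metabotropic receptor genes Grm3, Grm4, Grm6 and Grm8, and Grid2ip. Of these, 17 were detected on no array, and Gabrr3 and Grin2a on 1 array each. Their intensities ran from 310 to 640, while the dimmest detected probe of each array lay between 553 and 644, so they can be called only not well above background. Other genes of these families were not analysed here.

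Over the 22 tested genes, 17 had the higher mean in lineage samples (77.3%, against 49.2% of all genes) and 5 the lower mean (22.7%, against 50.8%), and the median difference was 0.11. The groups did not overlap with the lineage arrays higher for 10 genes (45.5%, against 21.5% of all genes) and with the lineage arrays lower for 3 (13.6%, against 22.7%). Among the 20 detected on all 4 arrays these were 9 and 2 genes, against 22.7% of all such genes in each direction. The 13 genes of GABA and glycine receptors had a median of 0.21 and the 9 genes of glutamate receptors one of 0.02. The glutamate median changed sign, to -0.13 without lineage replicate 2 and -0.0019 without AAV replicate 2, and was 0.08 without lineage replicate 1 and 0.19 without AAV replicate 1. The median of all 22 was 0.26 without lineage replicate 1, and 0.29 over 21 genes without AAV replicate 1. The genes of a family share the same 4 RNA samples, and these counts are a description of them.

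Among genes for proteins that act with glutamate receptors, the pentraxin Nptx2 differed by more than any of the 22 subunit genes. Of 16 tested partners of AMPA, kainate and delta receptors, limma called 0 after adjustment, while 4 were higher and 0 lower in the lineage group at an unadjusted p under 0.05, with a median difference of 0.16. Nptx2, a secreted pentraxin that gathers AMPA receptors at synapses, was at 11.22 and 11.36 in the lineage group and at 10.05 and 9.61 in the AAV group, a difference of 1.46 (SE 0.20, 2.75-fold, limma adjusted p = 0.237). Its relative Nptx1 was at 9.99 and 9.92 in the lineage group and at 9.11 and 9.35 in the AAV group, a difference of 0.73 (SE 0.16, limma adjusted p = 0.318). Lineage values lay above AAV values for both pentraxins on every array. Cnih3, an AMPA receptor auxiliary subunit, was at 9.17 and 9.03 in the lineage group and at 8.67 and 8.48 in the AAV group and differed by 0.52 (SE 0.16). Cbln4, a secreted synapse organizer of the cerebellin family, was at 10.98 and 10.99 in the lineage group and at 10.50 and 10.47 in the AAV group and differed by 0.50 (SE 0.14). Neither passed the adjusted threshold (limma adjusted p = 0.401 and 0.384). Cbln1, of the same family as Cbln4, went the other way without overlap. It was at 9.54 and 9.48 in the lineage group and at 10.29 and 9.81 in the AAV group. The difference was -0.54 (SE 0.21, limma adjusted p = 0.467, unadjusted p = 0.0567).

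The inhibitory synapse list of scaffolds, auxiliary subunits and chloride transporters had 11 tested genes with a median difference of 0.02. Of these, 0 were higher and 1 lower at an unadjusted p under 0.05, against 4.75% and 6.18% of all genes. The lower gene was Kctd12b, which encodes a protein that binds GABA-B receptors. It was at 6.75 and 7.73 in the lineage group, detected on 1 of the 2 arrays, and at 8.22 and 8.18 in the AAV group, a difference of -0.96 (SE 0.35, limma adjusted p = 0.453). The lists for GABA and glycine supply (5 genes, median -0.0043), postsynaptic scaffolds (9 genes, median -0.01) and glutamate supply and uptake (4 genes, median -0.06) had 0 genes at an unadjusted p under 0.05 in either direction, and limma called 0 of these genes after adjustment.

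Markers of other neurons moved beside these results. Pomc was detected on all 4 arrays, at 12.75 and 12.90 in the lineage group and 12.09 and 12.25 in the AAV group. Lineage means were higher for 4 of 5 POMC neuron markers, against 49.2% of all genes. Only Pomc and Pcsk1 were higher without overlap. Isl1 and Tbx3 overlapped on their brightest probes, and Cartpt differed by -0.06. Npy, a marker of AgRP neurons, was at 12.14 and 12.00 in the lineage group and at 9.47 and 9.46 in the AAV group. At an unadjusted p under 0.05, 3 of 3 tested AgRP/NPY markers and 3 of 3 kisspeptin neuron markers were higher, against 4.75% of all genes. The summed linear level of the AgRP/NPY markers was 5593 to 6168 in the lineage group and 1101 to 1357 in the AAV group, and that of the kisspeptin markers was 1601 to 1811 in the lineage group and 334 to 395 in the AAV group. Corin, Tac2 and Tacr3 were detected on 0 AAV arrays and Kiss1 on 1, so Corin, Tac2 and Tacr3 passed the filter only through the lineage arrays, and the AAV sums include probes not well above background. Markers of neurons in neighbouring nuclei were lower, 5 of 5 at an unadjusted p under 0.05, against 6.18% of all genes. The summed levels of these markers were 2220 to 2305 in the lineage group and 11696 to 14164 in the AAV group. Pmch, detected on 0 lineage arrays, passed the filter only through the AAV arrays. Of 6 pan-neuronal genes, 0 were higher and 1, Syt1 at -0.48, was lower at an unadjusted p under 0.05. The pan-neuronal summed levels were 22556 to 23623 in the lineage group and 22303 to 22800 in the AAV group.

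Astrocyte and oligodendrocyte markers ran against the GABA-A genes. All 5 tested astrocyte markers had lower means in the lineage group, 2 of them at an unadjusted p under 0.05, with summed levels of 6416 to 6473 in the lineage group and 8166 to 9075 in the AAV group, while Gfap was detected on 0 arrays and Aqp4 on 1. All 4 tested oligodendrocyte markers also had lower means, 2 of them at an unadjusted p under 0.05. Over all genes, 50.8% had lower means and 6.18% were lower at that threshold. The summed levels of the oligodendrocyte markers were 2143 to 2548 in the lineage group and 3532 to 4067 in the AAV group. Mog was detected on 0 arrays and Mobp on 1. Both oligodendrocyte precursor markers and the microglial marker Aif1 had lower means, the mural cell gene Rgs5 differed by -1.47, and Vim, listed for tanycytes, differed by 0.70, while C1qa, Rax, Foxj1 and Col23a1 were detected on 0 arrays. The part of these shifts in the receptor differences was not tested. The lineage arrays sat at positions F and H of a beadchip and the AAV arrays at B and D, so position and group cannot be told apart.

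**Figure D5:**
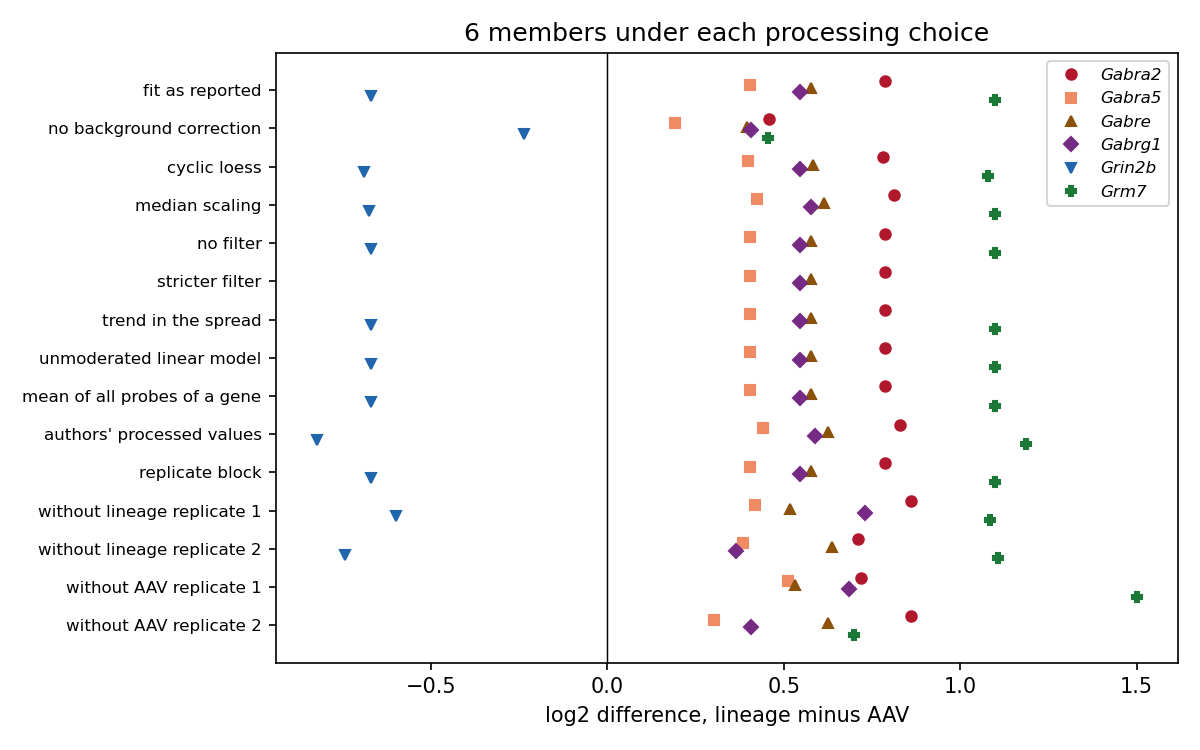
Log2 difference of lineage minus AAV (x axis) of the 6 members at an unadjusted p under 0.05, under the fit as reported and under 14 other processing choices (rows; Grin2b and Grm7 have no value where they fail the filter). No point crosses 0, but the filter, spread model, probe means and replicate block cannot move these points, as each gene has 1 probe. Differences shrink without background correction, to 0.46 for Gabra2 and -0.24 for Grin2b.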

How the data were processed

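Polysome-bound RNA of 4 samples was hybridised to 4 single-colour beadchip arrays. The authors deposited, per the file headers, an average intensity per probe with a count of beads, a bead standard error and the detection p-value. The submitters' processing notes name GenomeStudio, with no version given. These intensities showed no background subtraction or scaling (array means 1111 to 1192). A further table of the authors' processed intensities was linear in each array's deposited intensity (residuals at most 0.0101), with 416 to 440 subtracted and means of 718. Its column medians were 122 and 130 for lineage and 134 and 126 for AAV arrays. It served as an alternative.

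Intensities were corrected and normalised with neqc of limma 3.58.1 (R 4.3.3, offset 16, quantile, log2). Of 25697 probes, 12266 were detected (p-value under 0.05) on 2 or more of the 4 arrays. The platform annotation named 23978 probes with 1 symbol, 0 with several and 1719 with none. The brightest probe stood for a gene, giving 8360 genes. Lineage was compared with AAV by lmFit and eBayes over all 4 arrays without covariates, with two-sided p-values adjusted by Benjamini-Hochberg over all genes. An exact permutation of 2 against 2 cannot go below 0.333. Between 10982 and 12306 probes per array were detected, from a median of 38 to 39 beads. The number of arrays limits precision.

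Members and lists were chosen with earlier results of these data known. Every tested member is named; full values go to those at an unadjusted p under 0.05, at background in 1 group, or of largest difference in a family. Gabrg3, Glra3, Gria1, Gria2, Gria3, Grik1, Grin2c and the partner gene Cbln1 were given in full after their values were seen. Alternatives changed background correction, normalisation, filter, spread model, probe choice, source table, replicate block and arrays. Deviations of same-numbered arrays correlated at -0.035 over genes, and the numbers are not known to mark shared animals or days.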

Additional observations from a re-analysis of the deposited data

How the results depend on the processing

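The count of members past the adjusted threshold was 0 under all 14 alternatives. Over all genes it was 0 as reported, 203 with a trend in the spread, 40 without background correction, 4 with median scaling, 1 with the stricter filter, 1 with the authors' processed values and 0 with the replicate block, cyclic loess, no filter, an unmoderated model, probe means or any array left out. The cause was not tested. Members at an unadjusted p under 0.05 numbered 6 as reported, 4 with the replicate block, and 3 to 5 with 1 array left out, 3 of them without lineage replicate 2. The median member difference of 0.11 ran from 0.11 to 0.29 with 1 array left out (0.26 without lineage replicate 1, 0.29 without AAV replicate 1). Gabra2, Gabre, Gabrg1, Gabra5, Grm7, Glra2, Gria4, Gabbr1 and Grin2b kept their sign under every alternative that gave a value. Much of this was fixed in advance. The filter, spread model, probe means and replicate block cannot change the estimate of a gene with 1 probe past the filter. Leaving out 1 array can hardly reverse a gene whose groups do not overlap, as for all of these but Gabbr1. Grik5 ran from -0.40 to 0.44 with 1 array left out. Without background correction Gabra2 was at 0.46, Gabra5 at 0.19, Grm7 at 0.46 and Grin2b at -0.24. Grin2b could not be tested with the stricter filter or without either AAV array, nor Grm7 with the stricter filter. Signal over background limits Grin2b and Grm7, which were not detected on every array.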
